A study of Mus musculus with 2 samples.

Results

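The genes described here belong to families that are transcribed in the two-cell embryo, in two-cell-like cells of embryonic stem cell (ESC) cultures, in oocytes or in the preimplantation embryo. They were chosen by gene symbol. All genes whose names begin with Zscan4, Tcstv, Usp17l, Pramef or Pramel, or with Obox or Oog followed by a digit, were taken, together with Zfp352, Eif1a, Eif1ad, Tdpoz1, Tdpoz3, Tdpoz4, Sp110, Zscan5b and 1 further gene that is counted but not reported here. The rule found 42 of the 24354 genes with a value. It also names Duxf3, which has no row under that symbol. A row named Dux was not counted as a member and is given with the other two-cell transcripts. RNA-seq was performed on 2 cultures of differentiating mouse ESCs, called Diff–CONT and Diff–iKO and sequenced as 1 library each, to ask which transcripts depend on Ino80, the ATPase of a chromatin remodelling complex. Both lines came from blastocysts and are described as floxed (Ino80 2f/2f), whereas the sample labels call the control WT and the other line Ino80 knockout. Only the iKO line carried CreER at the ROSA26 locus, a Cre recombinase that is activated by 4-hydroxytamoxifen (4-OHTM). Both lines formed embryoid bodies, received differentiation medium with BMP4 and 0.5 µM 4-OHTM for 7 days, and gave 1 µg of total RNA each for a stranded mRNA library with paired-end reads. With 1 library per condition, no difference given here has a replicate check, and the lines, the cultures and the knockout cannot be told apart.

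A small share of the cells in an ESC culture passes at any time through a state that resembles the blastomeres of the two-cell embryo, in which the zygotic genome is first activated. These two-cell-like cells transcribe the Zscan4 and Tcstv genes, Zfp352, several families of recently duplicated genes and endogenous retroviral repeats, under the control of the homeobox factor Dux, while chromatin repressors keep the same loci silent in the other cells. The PRAME, Oog and Obox families are better known from germ cells, oocytes and cleavage-stage embryos, and many of them sit in arrays. The repeats were not analysed here.

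The promoters of the main arrays show how alike the copies are and where their annotated starts lie. Sequences of 300 bases, 250 before and 50 after the annotated start, were taken from RefSeq (GRCm38.p6) and were given for 28 of the 42 genes, as 29 promoters. Those of the Zscan4 genes are printed because this family is the best-known marker of the two-cell-like state, and 2 of the Usp17l promoters because that array behaved alike. Capitals mark TATAAA, the core of the TATA box, searched on the printed strand. Zscan4c is chr7:11005495-11005794 on the plus strand, Zscan4d is chr7:11166099-11166398 on the minus strand, Zscan4f is chr7:11397665-11397964 on the plus strand and Zscan4b is chr7:10905001-10905300 on the minus strand. Usp17lb is chr7:104842534-104842833 on the minus strand and Usp17lc is chr7:103416446-103416745 on the plus strand.
Zscan4c: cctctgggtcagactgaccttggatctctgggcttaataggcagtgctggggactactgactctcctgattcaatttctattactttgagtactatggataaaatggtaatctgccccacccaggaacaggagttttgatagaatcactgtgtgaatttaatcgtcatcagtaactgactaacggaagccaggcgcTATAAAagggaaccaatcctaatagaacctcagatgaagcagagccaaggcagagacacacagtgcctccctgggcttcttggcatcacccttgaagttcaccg
Zscan4d: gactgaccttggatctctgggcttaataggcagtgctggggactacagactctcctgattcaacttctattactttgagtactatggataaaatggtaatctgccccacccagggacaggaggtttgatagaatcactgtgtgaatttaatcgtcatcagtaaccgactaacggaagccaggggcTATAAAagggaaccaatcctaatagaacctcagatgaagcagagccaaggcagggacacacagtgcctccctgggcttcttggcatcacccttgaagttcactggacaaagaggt
Zscan4f: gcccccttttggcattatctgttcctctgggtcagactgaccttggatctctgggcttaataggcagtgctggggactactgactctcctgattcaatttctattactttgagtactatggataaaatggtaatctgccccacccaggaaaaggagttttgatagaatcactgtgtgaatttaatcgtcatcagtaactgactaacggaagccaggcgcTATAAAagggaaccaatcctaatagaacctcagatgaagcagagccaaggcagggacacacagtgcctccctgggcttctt
Zscan4b: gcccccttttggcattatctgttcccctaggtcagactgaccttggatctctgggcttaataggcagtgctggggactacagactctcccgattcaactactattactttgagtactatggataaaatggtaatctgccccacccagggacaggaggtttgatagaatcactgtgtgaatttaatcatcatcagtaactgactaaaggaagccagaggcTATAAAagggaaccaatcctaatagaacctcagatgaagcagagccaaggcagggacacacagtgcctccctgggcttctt
Usp17lb: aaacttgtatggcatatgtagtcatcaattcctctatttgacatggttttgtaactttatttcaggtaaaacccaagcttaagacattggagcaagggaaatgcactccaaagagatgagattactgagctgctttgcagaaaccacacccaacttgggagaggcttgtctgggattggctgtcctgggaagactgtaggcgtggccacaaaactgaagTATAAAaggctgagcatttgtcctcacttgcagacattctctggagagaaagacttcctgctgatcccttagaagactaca
Usp17lc: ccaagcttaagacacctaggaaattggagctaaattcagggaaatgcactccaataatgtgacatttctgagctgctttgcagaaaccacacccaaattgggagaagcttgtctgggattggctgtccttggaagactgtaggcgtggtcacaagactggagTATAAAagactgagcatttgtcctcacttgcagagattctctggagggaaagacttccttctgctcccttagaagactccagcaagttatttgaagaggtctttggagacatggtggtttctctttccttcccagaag

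The 4 Zscan4 promoters were 95.3% to 99.3% identical over their aligned bases, with Zscan4c and Zscan4f the closest pair (275 of 277 bases), and the Usp17l promoters were 91.7% to 96.8% identical. TATAAA stood once in each of the 4 Zscan4 promoters, beginning at position -31 from the annotated start in Zscan4b and Zscan4f, at -54 in Zscan4c and at -65 in Zscan4d. It was also found in Usp17lb (-31), Usp17lc (-88), Usp17ld, Obox3, Oog2 and Oog3. These are 10 of the 28 member genes, while 8.32% of all 32851 promoters of the same length held the motif. The Usp17la promoter, which was also compared, did not hold it. The copies share their sequence, so these matches are not separate events.

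The Zfp352 promoter is shown for another motif. Capitals mark TAATCC, a core bound by homeobox proteins of the Otx and Crx type, searched on both strands. Zfp352 is chr4:90218570-90218869 on the plus strand.
Zfp352: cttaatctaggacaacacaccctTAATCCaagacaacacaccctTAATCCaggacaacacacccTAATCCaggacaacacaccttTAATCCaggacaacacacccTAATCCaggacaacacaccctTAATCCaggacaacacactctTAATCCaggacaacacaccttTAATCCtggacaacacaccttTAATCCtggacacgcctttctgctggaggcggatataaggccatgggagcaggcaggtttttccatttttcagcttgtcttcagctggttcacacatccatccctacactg

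TAATCC was repeated 9 times there, from position -227 to -61, and 1 promoter of all 32851, that of Zfp352, held as many. At least 1 copy of this motif occurred in 7.06% of all promoters and in those of 7 member genes. GATTNAATC, the core of the mouse Dux motif, was also searched on both strands and occurred in 0.268% of all promoters and in 0 of the members. A match is a description of these windows and not of binding, which was not measured.

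Values are FPKM as deposited, that is, fragments relative to transcript length and library size. FPKM rose in steps that correspond to single fragments, and 83.3% to 84.6% of the low values of long single-transcript genes lay within 0.2 of a whole multiple, against 40% by chance. The step was fitted on these same values, so part of the excess over 40% comes from the fit. By these steps the libraries scaled as 29900000 and 22340000 fragments, or 1.338 to 1, so the Diff–CONT library, in which most members were lower, was the deeper of the pair. From the fragments behind each gene, an exact Clopper-Pearson 95% interval was set on its log2 ratio, and it covers counting error only. Ino80 had an FPKM of 8.90 in Diff–CONT and 10.3 in the Diff–iKO-labelled library, a log2 ratio of 0.21 (interval 0.11 to 0.31). The whole-gene value was thus not lower under the knockout label. It does not show whether the deleted exons are present, so it does not test the label. For undifferentiated ESCs of the iKO line treated with the Cre activator, the paper reports the deletion from genotyping and from qRT-PCR within a single exon. It describes no such check for the differentiating cultures. The libraries also differed in Xist (0.0639 and 3.59) and in Y-linked genes such as Ddx3y (4.07 and 1.89), and whether the sex of the cell lines has a part in the values below was not tested.

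Most of the families were nearly silent in Diff–CONT and detected at low levels in the Diff–iKO-labelled library. Of the 42 members, 22 had an FPKM above 0 in Diff–CONT and 33 in the Diff–iKO-labelled library. An FPKM of at least 0.1 was reached by 10 members in Diff–CONT and 29 in the Diff–iKO-labelled library, an FPKM of at least 1 by 4 and 14, and an FPKM of at least 2 by 4 and 7. Among the detected members 32 were higher and 1 was lower in the Diff–iKO-labelled library. Copies of a family can share reads, so these are not separate observations. Over all 17289 genes detected in both libraries the median log2 ratio of FPKM + 0.1 was 0.00044. In 11 members the FPKM was above 0 in the Diff–iKO-labelled library only, a pattern that 3.1% of all genes had, and in 0 members it was above 0 in Diff–CONT only, against 2.82% of all genes. Another 9 members were listed at 0 in both libraries, namely Obox1, Obox2, Obox3, Obox7, Oog1, Oog2, Oog3, Oog4 and Pramel3.

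Genes passed the cut-off with a fold change (FC) of at least 2 and an FPKM of at least 2 in 1 or more of the libraries. Past the cut-off, 4 members rose in the Diff–iKO-labelled library (Zscan4a, Zscan4d, Usp17le and Pramef12), of 7 that reached the FPKM minimum, and 6.73% of the 12376 genes above the minimum did so. Zscan4a, Zscan4d and Usp17le reached the minimum only in the library in which they were high, which all but fixed their call, and of the 4 members with an FPKM of at least 2 in both libraries 1, Pramef12, rose, while 4.37% of the 11161 genes at that level did. Downward, 0 of the 7 members passed, against 8.39% of the 12376 genes with an FPKM of at least 2 in 1 or more of the libraries. Of the 26 members detected below an FPKM of 2 in both libraries, 23 were at least 2-fold higher and 0 at least 2-fold lower, counting genes listed at 0 in 1 library, while among all 6355 such genes the shares were 30.9% and 27.1%. The counting interval lay wholly above 0 for 23 of 33 members and wholly below 0 for 0 of them, and over all genes for 30.7% and 31.6%. Over the 22 members detected in both libraries the median log2 ratio of FPKM + 0.1 was 1.93, beside 0.00044 over all 17289 genes detected in both and 0.01 over the 4937 of them that stayed below an FPKM of 2. In bulk RNA, more cells of a type and more RNA per cell cannot be told apart.

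**Figure D1:**
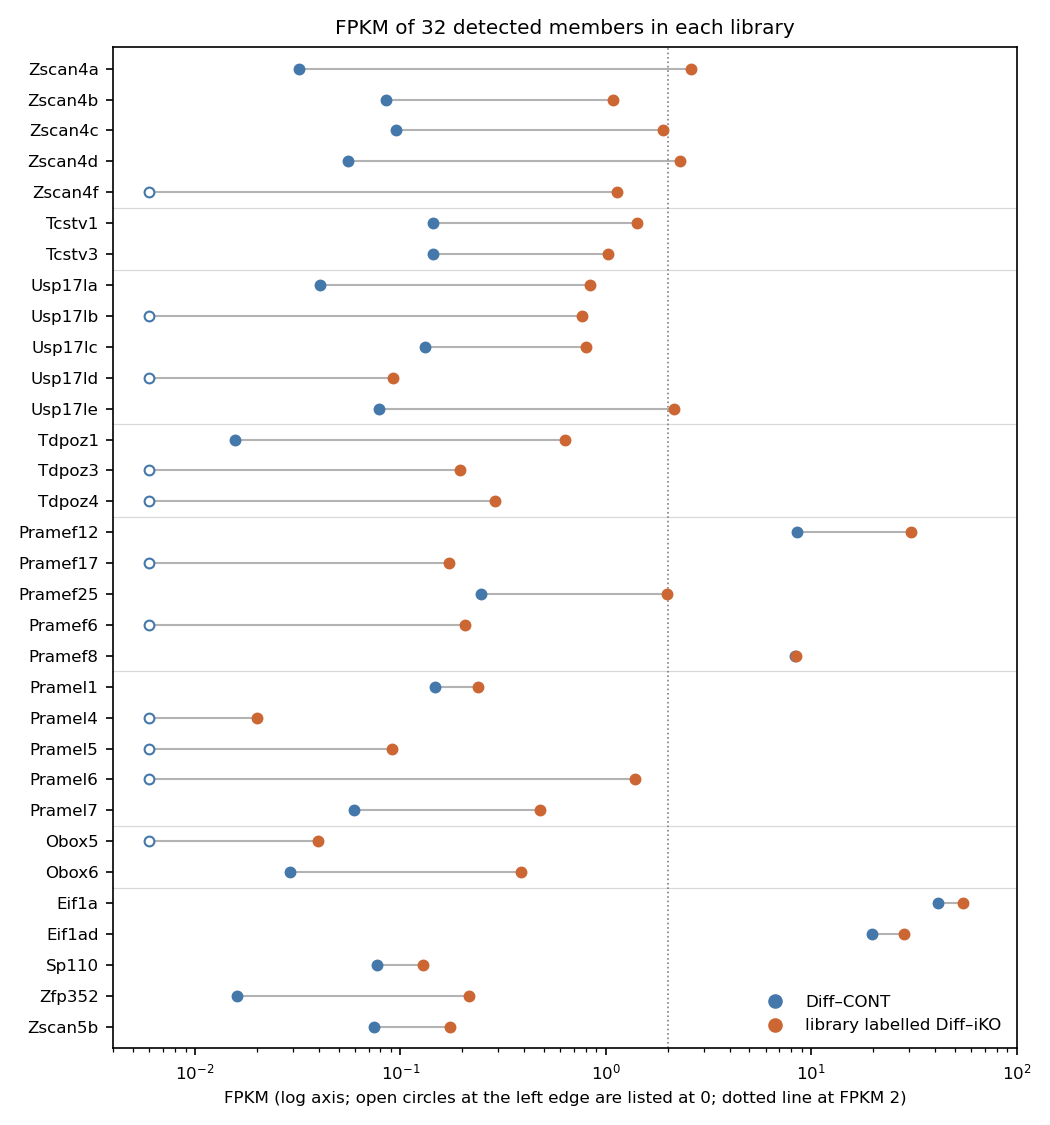
FPKM of 32 of the 33 detected members in the Diff–CONT library (blue) and the Diff–iKO-labelled library (orange), 1 library each, on a log axis. Open circles at the left edge are values listed at 0 and the dotted line is FPKM 2. All 32 pairs shown have the orange point on the right, and 4 members (Pramef12, Pramef8, Eif1a and Eif1ad) lie above FPKM 1 in both libraries.

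Zscan4 genes encode SCAN and zinc finger proteins that act in telomere lengthening and genome stability of ESCs. All 5 copies with a row were higher in the Diff–iKO-labelled library, and their summed FPKM was 0.268 in Diff–CONT and 9.02 in the Diff–iKO-labelled library, a 33.6-fold difference (log2 ratio 5.07, interval 4.33 to 5.92) resting on 15 and 397 fragments. They lie on chromosome 7 between positions 10794242 and 11402318 of GRCm38 (mm10). Zscan4a, classed as an unprocessed pseudogene in GENCODE and as a transcribed pseudogene in RefSeq, rose from an FPKM of 0.0322 to 2.60, or from 2 to 122 fragments (log2 ratio 6.34, interval 4.47 to 9.41). Zscan4d rose from 0.0553 to 2.30, or from 3 to 107 fragments (5.37, interval 3.99 to 7.88). Both copies passed the cut-off, with their Diff–CONT values near single fragments. Zscan4c, the copy most often used as a reporter of the state, was 0.0956 and 1.90 (6 and 88 fragments), a log2 ratio of 4.31 (interval 3.12 to 5.78) just below the FPKM minimum. Zscan4b was 0.0850 and 1.08 (4 and 38 fragments), a log2 ratio of 3.67 (interval 2.19 to 5.62). Zscan4f was listed at 0 in Diff–CONT and had an FPKM of 1.14 from 42 fragments in the Diff–iKO-labelled library, which is 18.7-fold above a floor of 3 fragments for a library at 0. With counting error in both libraries, the lower end of its interval was a log2 ratio of 3.87.

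The split among the Zscan4 copies is the least certain of their values. The share of 31-base words found in no other gene of the annotation was 2.39% of the transcript for Zscan4f, 3.19% for Zscan4b, 8.46% for Zscan4c, 23.3% for Zscan4a and 35.0% for Zscan4d. Reads from the rest of these transcripts also match another gene, mostly another copy, and how such reads were assigned is not given in the sources used here. Reads that match only Zscan4 copies stay within the family sum. Other reads also match genes outside it, and for Zscan4b 61.7% of the words were shared with the other copies. How far the sum depends on the assignment was not tested. Among other SCAN zinc finger genes, 15 had a row and 1, Zscan10, rose past the cut-off (FPKM 12.5 to 29.7), and it is also listed among the activators of the two-cell-like state. Zkscan3 was 23.9 and 25.2, Zscan26 was 23.3 and 21.1 and Zscan21 was 21.98 and 15.0. The median log2 ratio of that list was -0.09, with 5 genes higher and 10 lower, beside 5 of 5 higher for the Zscan4 copies.

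**Figure D2:**
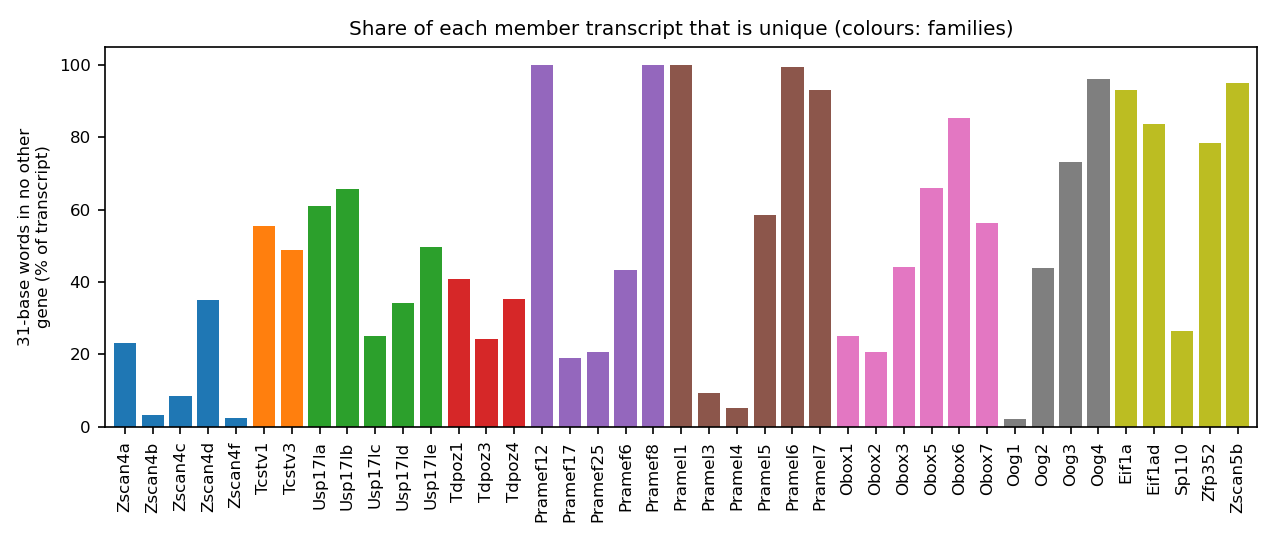
Share of the 31-base words of each member's transcript that occur in no other gene of GENCODE vM21, in percent of the words of that gene, with 1 bar per reported member and 1 colour per family. The bars of the Zscan4 copies end between 2.39% and 35.0%, and those of Pramef12, Pramef8 and Pramel1 at 100%.

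Tcstv1 and Tcstv3 encode small proteins of the two-cell stage and lie on chromosome 13. Tcstv1 had an FPKM of 0.145 in Diff–CONT and 1.42 in the Diff–iKO-labelled library (3 and 22 fragments), a log2 ratio of 3.29 (interval 1.56 to 5.68). Tcstv3 was 0.144 and 1.03 (3 and 14 fragments), a log2 ratio of 2.83 (interval 0.80 to 5.08). Both were higher beyond counting error without reaching the FPKM minimum, and their intervals overlap. In the summed FPKM the pair was 0.289 and 2.44, an 8.45-fold difference. About equal parts of their transcripts, 55.6% and 49.0%, were unique.

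Usp17l genes encode deubiquitinating enzymes, and their array lies on chromosome 7 between 103249737 and 104862667. The summed FPKM of the 5 copies was 0.251 in Diff–CONT and 4.64 in the Diff–iKO-labelled library, an 18.5-fold difference (log2 ratio 4.21, interval 3.40 to 5.14) from 13 and 179 fragments. Usp17le rose from 0.0784 to 2.15, or from 4 to 81 fragments (log2 ratio 4.78, interval 3.35 to 6.67), and was the copy that passed the cut-off. Usp17la was 0.0406 and 0.833 (3 and 46 fragments), a log2 ratio of 4.36 (interval 2.72 to 6.69). Usp17lc was 0.132 and 0.796 (6 and 27 fragments), a log2 ratio of 2.59 (interval 1.28 to 4.16). These 3 copies had a few fragments each in Diff–CONT, whereas the other two had none. Usp17lb was listed at 0 in Diff–CONT and at 0.766 in the Diff–iKO-labelled library (21 fragments), and the lower end of its interval was a log2 ratio of 2.80. Usp17ld was listed at 0 and 0.0921 (4 fragments), with an interval that reaches down to -0.18 and so includes 0. The unique part of the transcript reached 65.8% in this array, with a median of 49.8%.

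Tdpoz genes encode proteins with TRAF and BTB/POZ domains that are transcribed in the early embryo, and the 3 members lie on chromosome 3 between 93669333 and 93827117. Tdpoz1 had an FPKM of 0.0157 in Diff–CONT and 0.632 in the Diff–iKO-labelled library (1 and 30 fragments), a log2 ratio of 5.33 whose interval runs from 2.74 to 10.68. Tdpoz3 was listed at 0 and 0.195 (4 fragments), with an interval that reaches down to -0.18. Tdpoz4 was listed at 0 and 0.288 (6 fragments), with a lower end of 0.66. All were below the FPKM minimum, and 24.3% to 40.8% of their transcripts were unique. The summed FPKM of the 3 genes was 0.0157 and 1.12, a 70.9-fold difference (log2 ratio 6.15, interval 3.59 to 11.49) that rests on 1 fragment in Diff–CONT. Over the Zscan4, Tcstv, Usp17l and Tdpoz genes together, 15 of 15 were higher, and the summed FPKM was 0.825 and 17.2, a 20.9-fold difference (log2 ratio 4.38, interval 3.89 to 4.92) from 35 and 652 fragments. These families were grouped with their values known, and over all 42 members the summed FPKM was 79.8 and 145, a 1.82-fold difference in which the abundant Pramef and eIF1A-related genes weigh most. Copies within a family share sequence and can share reads, so the 15 rows are not separate observations.

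**Figure D3:**
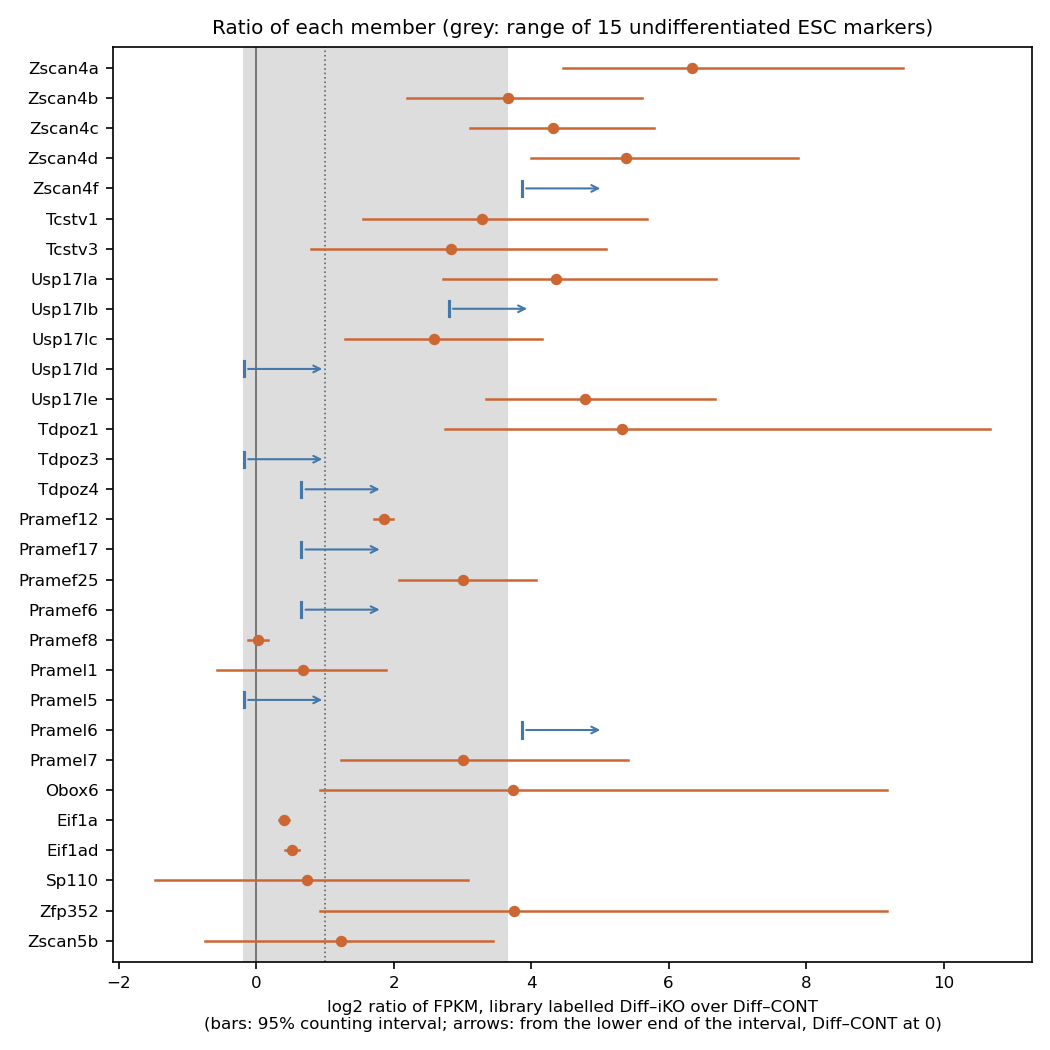
Log2 ratio of FPKM in the Diff–iKO-labelled library over Diff–CONT for each reported member with a ratio, or with more than 3 fragments in the Diff–iKO-labelled library and 0 in Diff–CONT. Points are ratios with their 95% counting intervals, blue arrows start at the lower end of the interval of members listed at 0 in Diff–CONT (their length has no meaning), the dotted line is the cut-off of 1, and the grey band spans the ratios of 15 markers of undifferentiated ESCs. Zscan4a and Zscan4d lie to the right of the band with their whole intervals, while Pramef8, Eif1a and Eif1ad lie near 0.

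PRAME family genes encode leucine-rich repeat proteins of germ cells and early embryos, and they did not act as 1 group. Pramef12, which is required for the maintenance of spermatogonia, rose from an FPKM of 8.496 to 30.7 (577 and 1558 fragments), a 3.62-fold change (log2 ratio 1.85, interval 1.71 to 1.99). Pramef8 was 8.33 and 8.45 (920 and 698 fragments), a log2 ratio of 0.02 (interval -0.12 to 0.17) that became -0.072 when both libraries were scaled to the same sum. These 2 genes were at nearly the same level in Diff–CONT, and their transcripts are wholly unique by 31-base words. Their intervals are far apart. Pramef25 was 0.246 and 1.98 (11 and 66 fragments), 8.03-fold higher with a log2 ratio of 3.01 (interval 2.07 to 4.08), and lay just under the FPKM minimum. Pramef17 was listed at 0 and 0.171 and Pramef6 at 0 and 0.205, each from 6 fragments and with a lower end of the interval at 0.66. The unique part of the transcript was 20.6% for Pramef25, 19.1% for Pramef17 and 43.4% for Pramef6. The values of these 3 genes therefore also depend on how reads with several matches were assigned. The summed FPKM of the 5 Pramef genes was 17.1 and 41.5, a 2.43-fold difference. Pramef12, on chromosome 4 from 144391674 to 144408464, overlaps an antisense gene, and the strand setting of the counting is not given in the sources used here.

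In the Pramel family, Pramel6 and Pramel7 lie side by side on chromosome 2 between 87489087 and 87510872 and are known from naive ESCs and the inner cell mass, where PRAMEL7 promotes the loss of UHRF1, a cofactor of DNA methylation. Pramel6 was listed at 0 in Diff–CONT and had an FPKM of 1.38 in the Diff–iKO-labelled library (42 fragments), and the lower end of its interval was a log2 ratio of 3.87. Pramel7 was 0.0597 and 0.479 (3 and 18 fragments), a log2 ratio of 3.005 (interval 1.23 to 5.41). Their transcripts are 99.5% and 93.0% unique, so few of their reads could match another gene. Pramel1, the first gene of the array on chromosome 4, was 0.148 and 0.237 (12 and 14 fragments), a log2 ratio of 0.68 with an interval of -0.58 to 1.89 that includes 0. Pramel5 was listed at 0 and 0.0909 (4 fragments) and Pramel4 at 0 and 0.0201 (1 fragment), with 58.5% and 5.06% of their transcripts unique. Of the 6 Pramel genes, 5 were therefore higher, and the sum of the family was 0.207 and 2.21, a 10.7-fold difference.

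The PRAME array on chromosome 4 runs from 143394428 to 144408464, and in map order its members are Pramel1, Pramef8, Oog4, Pramef6, Pramef25, Pramef17, Pramel4, Oog3, Oog2, Pramel5 and Pramef12. Pramel1 and Pramef8, with log2 ratios of 0.68 and 0.02, are its first 2 genes, and Pramef12 is its last. The Oog genes inside the array were listed at 0 in both libraries. Oog4 has a detected member on each side, Pramef8 and Pramef6. Oog3 and Oog2 are next to each other, between Pramel4 and Pramel5, which had 1 and 4 fragments in the Diff–iKO-labelled library and 0 in Diff–CONT. A further 20 genes to which RefSeq gives PRAME-like names fell outside the symbol rule and were looked up after the members' values were known. Of these, 9 were detected and all 9 were higher in the Diff–iKO-labelled library, with a summed FPKM of 0.221 and 5.12 and 0 genes at the FPKM minimum. The highest were Gm13078 (0.0693 and 1.65), Gm12794 (0.0526 and 1.27), Gm13119 (0.0353 and 1.06) and Gm13083 (0.0439 and 0.626). Gm12794 is also counted among the other two-cell transcripts below. The unique part of these transcripts was not computed, so they may share reads with the members.

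Obox genes encode oocyte-specific homeobox proteins on chromosome 7, and Oog genes encode the oogenesins, PRAME-like proteins of the oocyte. Obox6, a member known from preimplantation stages, had an FPKM of 0.0290 in Diff–CONT and 0.387 in the Diff–iKO-labelled library (1 and 10 fragments), a log2 ratio of 3.74 (interval 0.93 to 9.18). Obox5 was listed at 0 and 0.0395, a single fragment. The other 4 Obox genes and all 4 Oog genes were listed at 0 in both libraries, and a fragment count of 0 allows up to 3 fragments. The unique part of the transcript was 2.15% for Oog1, 20.6% for Obox2 and 25.2% for Obox1, so a listed 0 there also depends on how reads with several matches were treated.

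Oocyte and maternal-effect genes were examined as markers of that cell type. Of 20 genes, 16 were detected, 12 of them higher and 4 lower, with a median log2 ratio of 0.69 over the 13 detected in both libraries and a summed FPKM of 22.04 and 40.7. Ooep rose from 4.41 to 15.2, Tle6 from 4.17 to 10.3 and Nlrp4f from 0.538 to 3.16, and Zbed3 was 11.7 and 8.92. Ooep, Tle6 and Zbed3 belong to the subcortical maternal complex of the egg, and ESCs also transcribe Ooep. Zp1 and H1foo, which define oocytes, were listed at 0 in both libraries, Zp2 at 0 and 0.0443 and Bmp15 at 0 and 0.0310. Other oocyte genes were detected, with Zp3 at 0.353 and 0.905 (log2 ratio 1.36, interval 0.29 to 2.50) and Khdc3 at 0.200 and 1.34 (log2 ratio 2.74, interval 1.51 to 4.34). Gdf9 was 0.391 and 0.275, with an interval of -1.77 to 0.67. The part of oocyte transcripts in the members' values was not tested.

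Zfp352, a zinc finger gene used as a marker of two-cell-like cells, lies on chromosome 4 from 90218820 to 90225702. Its FPKM was 0.0161 in Diff–CONT and 0.215 in the Diff–iKO-labelled library (1 and 10 fragments), a log2 ratio of 3.74 (interval 0.93 to 9.18). It thus went in the same direction as the Zscan4 genes, at a level that counting leaves imprecise. Zscan5b, another SCAN zinc finger gene of the early embryo, was 0.0747 and 0.175 (4 and 7 fragments), a log2 ratio of 1.23 with an interval of -0.75 to 3.45.

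Eif1a and Eif1ad, which are related to the initiation factor eIF1A of start codon selection, were the members with the highest FPKM in Diff–CONT. Eif1a was 41.3 and 54.7 (3302 and 3268 fragments), a log2 ratio of 0.41 (interval 0.34 to 0.48). Eif1ad was 19.7 and 28.3 (1396 and 1494 fragments), a log2 ratio of 0.52 (interval 0.41 to 0.62). Both were higher beyond counting error and far from the cut-off. Of 9 other initiation factors of the same step 0 passed the cut-off, with a median log2 ratio of 0.26 and a range from -0.71 for Eif1b (42.4 and 25.8) to 0.94 for Eif2s2 (85.9 and 165). Eif1 was 224 and 273, Eif3a was 121 and 132 and Eif1ax was 102 and 66.7.

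Sp110, an interferon-induced nuclear body gene, was 0.0771 and 0.129 (4 and 5 fragments), a log2 ratio of 0.74 with an interval of -1.47 to 3.08 that includes 0. Among 12 relatives and interferon-induced genes, 5 rose past the cut-off, Isg15 (3.45 to 11.5), Oasl2 (3.78 to 7.95), Irf7 (1.46 to 4.66), Ifit1 (0.530 to 3.02) and Ifit3 (0.551 to 2.31). The immunoproteasome gene Psmb8 fell from 5.40 to 1.89. Bst2 was 64.1 and 128 and Irf1 was 21.4 and 16.4. The list's median log2 ratio was 1.02, while the depth behind Sp110 cannot place it with or apart from these genes.

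Transcripts of two-cell embryos and two-cell-like cells that the symbol rule leaves out were compared with the members. Of 30 such genes 29 had a row and 26 were detected, and 25 of these were higher and 1 lower in the Diff–iKO-labelled library. These counts include Gm428, listed at 0 and 6.79e-05, and BB287469, listed at 2.33e-07 and 0.107, whose smallest values are worth less than 1 fragment. At least 2-fold higher were 23 genes, and the median log2 ratio over the 21 detected in both libraries was 1.17. The cut-off was passed upward by Fgf1 (1.89 to 4.05), Gm20767 (0.322 to 3.34) and Zfp750 (1.09 to 2.41), and downward by the cytoskeletal gene Pdlim4 (15.1 to 5.61). Ctsl was 393 and 571 and Ddit4l was 5.49 and 7.20. Dux, the homeobox activator of the state, which has its row under this symbol and not as Duxf3, was listed at 0 in Diff–CONT and at 0.0727 in the Diff–iKO-labelled library, below every Zscan4 copy in that library.

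**Figure D4:**
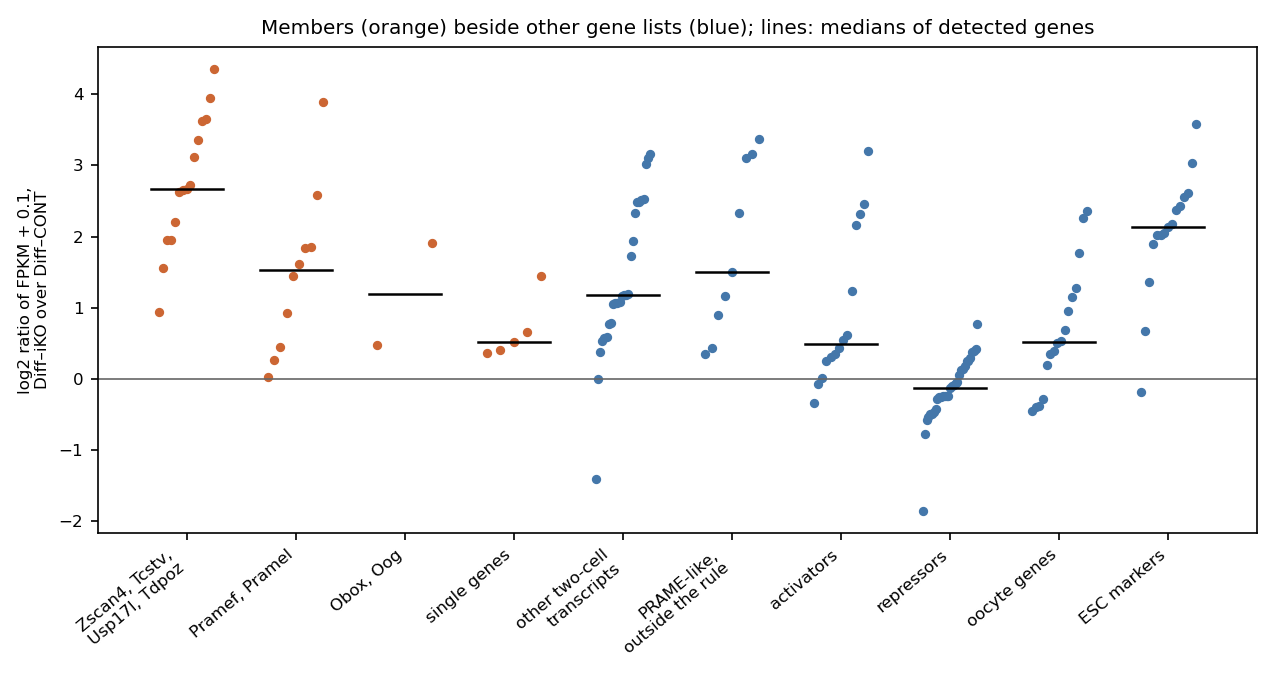
Log2 ratio of FPKM + 0.1 in the Diff–iKO-labelled library over Diff–CONT for each gene detected in at least 1 library, with the members in orange by family, other gene lists in blue, and a black line at the median of each column of points. The points of the Zscan4, Tcstv, Usp17l and Tdpoz genes all lie above 0, as do those of the 9 detected PRAME-like genes outside the symbol rule, whereas 20 of the 31 repressors lie below 0.

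Factors known to repress the two-cell-like state in ESCs, such as the TRIM28 and SETDB1 silencing pair, the CAF-1 chaperone, variant PRC1.6 subunits and SUMO enzymes, were all expressed. Of 31 genes, 0 rose and 1, Lin28a, fell past the cut-off (FPKM 103 to 28.6), with 11 higher, 20 lower and a median log2 ratio of -0.13. Nap1l1 was 353 and 299, Trim28 was 212 and 278, Ncl was 118 and 134 and Hdac2 was 88.4 and 72.4. LIN28A binds RNA and is itself a factor of undifferentiated ESCs. Among 14 genes listed here as activators of the state 5 rose past the cut-off and 0 fell. They were Dppa2 (2.52 to 24.0), Dppa4 (11.2 to 56.3), Dppa3 (10.2 to 46.1), the nuclear receptor gene Nr5a2 (1.17 to 6.87) and Zscan10 (12.5 to 29.7). The label of activator is the list's own and was not tested for any of its genes, Ctcf (32.5 and 30.9) and Tet2 (5.92 and 9.16) included. Trp53 was 86.0 and 116, Kpna2 was 69.1 and 82.4 and Kdm5b was 57.6 and 58.4. The median log2 ratio of this list was 0.49. Dppa2 and Dppa4, which act upstream of Dux, are also markers of undifferentiated ESCs.

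Markers of undifferentiated ESCs moved with the members. Of 15 markers, 13 rose past the cut-off and 0 fell, their summed FPKM was 506 and 3085, and 0 of them were at 0 in either library. Pou5f1 was 60.8 and 247, Nanog 19.5 and 81.2 and Dppa5a 258 and 2115. Their ratios ranged from 0.882-fold for Tbx3 (11.5 and 10.1) to 12.5-fold for Nr0b1 (2.32 and 28.9), with a median log2 ratio of 2.14. Of the members, 9 had a larger ratio than each of the 15 markers, namely the Zscan4a, Zscan4b, Zscan4c and Zscan4d copies, Usp17la, Usp17le, Tdpoz1, Obox6 and Zfp352. These ratios have no pseudocount, and Tdpoz1, Obox6 and Zfp352 had 1 fragment each in Diff–CONT. With a pseudocount of 0.1 the log2 ratios of the 9 members ran from 1.44 for Zfp352 to 4.36 for Zscan4a, so this ranking depends on the pseudocount. The interval of Nr0b1 ran from 3.36 to 3.94 on the log2 scale, and those of Zscan4a and Zscan4d lay wholly above it, while the lower ends of Zscan4f and Pramel6 (3.87) fell inside it. The part of undifferentiated cells in the members' values was not tested.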

How the data were processed

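The authors deposited FPKM values for 24354 genes, 1 column per library. According to the study's methods and the submitters' processing notes, reads were aligned with STAR 2.7.9a to mm10 and quantified with Cuffquant and Cuffnorm (Cufflinks 2.2.1). The gene annotation, strand setting and treatment of reads with several matches are not given in the sources used here, and dropping or dividing such reads touches near-identical copies most. The fold change and FPKM minimum of the cut-off follow the study's methods, and applying the minimum to either library was a choice made here. Ratios were computed per gene from the deposited FPKM, with a pseudocount of 0.1 for medians and where stated, and none elsewhere. Fragments were recovered from FPKM and transcript length shortened by 190 nucleotides, with the scale fitted on 4790 single-transcript genes of at least 1000 nucleotides, and the floor was 3 fragments per library. Coordinates and transcripts are from GENCODE vM21 (GRCm38), and names, classes and promoters from RefSeq (GRCm38.p6). Named were members with an FPKM of at least 1, the 3 highest others of each family, and of each other list the 4 highest genes and those past the cut-off, some only as a count or not reported here. Remaining members and genes were added knowing their values. The members and lists were chosen with earlier results of these data known. The steps were tested on simulated data. Alternatives were other FPKM minimums, pseudocounts, fold changes and scalings. The tools were Python 3.11.15 with Biopython 1.88, matplotlib 3.10.9, scipy 1.17.1, pandas 2.3.3 and numpy 2.4.6.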

Additional observations from a re-analysis of the deposited data

How the results depend on the processing

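The count of members past the cut-off depended on the FPKM minimum. It was 4 as reported, 16 of 22 without a minimum and with both libraries above 0 (11.8% of all such genes), 11 of 14 with a minimum of 1 (7.86%) and 1 (Pramef12, 4.37%) when both libraries had to reach 2, and with every other setting tried it was 3 or 4. Downward it was 0 in each setting. At an FPKM of at least 0.1 the detected members in Diff–CONT fell from 22 to 10, and at an FPKM of at least 1 to 4, while in the Diff–iKO-labelled library 14 of 33 reached an FPKM of 1. The median log2 ratio of 1.93 was 2.88 with a pseudocount of 0.01, 1.44 over all 42 members and 0.68 with a pseudocount of 1, and 1 exceeds most of the members' FPKM values. Of 134 values recomputed for 30 single members and family sums, 1 reversed, Pramef8 at -0.0725 under scaling to the same sum, 115 stayed within their counting intervals and 18 moved beyond them, most with a pseudocount of 1. With pseudocounts of 0.1 and 1 the log2 ratio was 4.36 and 1.80 for Zscan4a, 3.95 and 1.64 for Zscan4d, and 2.66 and 0.68 for Tdpoz1. That scaling shifted all log2 ratios by -0.09. The scalings of the family sums were added after the data were seen. No paired analysis was possible because each condition has 1 library and the ratios come from no test.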
